A study of Mus musculus with 24 samples.

Results

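Transcripts of genes that remove monoamines once they have been released were followed in mouse cortex. They were *Maoa* and *Maob*, which encode the monoamine oxidases, and *Slc29a4* and *Slc22a3*, which encode the low-affinity carriers PMAT and OCT3, and they were chosen by symbol. All 4 had a single entry among the 15456 genes of the deposited table, and all 4 passed the filter on low values that left 14974 genes for testing. The high-affinity transporters that duloxetine blocks, *Slc6a4* for serotonin and *Slc6a2* for noradrenaline, had no row in the table, so no value is given for either.

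The samples came from 24 BALB/C mice (OlaHsd by the methods) at postnatal week 11, in 4 groups of 6. Controls had no treatment by their labels. According to the methods, control groups received PBS in place of the drug and were gavaged with PBS in place of the bacterium. Whether mice given 1 treatment received PBS by the other route is not spelled out. The duloxetine mice received the drug by daily intraperitoneal injection, the *R. flavefaciens* mice received live *Ruminococcus flavefaciens*, a gut bacterium, by repeated gavage, and the mice given both received the injections and the gavage together. Duloxetine is a serotonin and noradrenaline reuptake inhibitor used as an antidepressant. According to the study the mice went through no stress protocol, which limits them as a model of depression, and only males were used. Tissue was punched from slices of the frontal cortex, and poly(A) RNA was sequenced, 1 library per mouse. The question here was whether transcripts for monoamine breakdown and low-affinity uptake differed with the drug, the bacterium or their combination.

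Released serotonin, noradrenaline and dopamine are cleared mainly by high-affinity transporters in the terminals that released them. PMAT and OCT3 take up monoamines with lower affinity and higher capacity, in neurons and in glia, and are not the targets of reuptake inhibitors such as duloxetine. Inside cells, monoamine oxidase A prefers serotonin and noradrenaline, monoamine oxidase B prefers phenylethylamine and is known from astrocytes and serotonergic neurons, and both sit on the outer mitochondrial membrane. The cell bodies of serotonergic and noradrenergic neurons lie in the brainstem, and the cortex receives their axons.

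Positions were taken from the table and match the mouse build GRCm38. *Maoa* (ENSMUSG00000025037.6) lies on chromosome X at 16619698 to 16687818 on the plus strand, and *Maob* (ENSMUSG00000040147.14) lies beside it at 16709282 to 16817366 on the minus strand. The pair is arranged tail to tail with 21463 bases between the genes, and each has 15 exons in its principal transcript. *Slc29a4* (ENSMUSG00000050822.11) lies on chromosome 5 at 142692512 to 142722490 on the plus strand, and *Slc22a3* (ENSMUSG00000023828.2) on chromosome 17 at 12419972 to 12507704 on the minus strand, each with 11 exons. An antisense gene lies within *Slc22a3* on the opposite strand, and since strand-specific counting is not stated, its reads cannot be told apart from those of *Slc22a3*. The *Slc22a3* model of GENCODE vM21 starts further out, at 12418960, and overlaps the end of *Plg*, at 12419385, which the position in the table does not. Neither of these neighbours had a row in the table. No annotated gene overlaps the other members.

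Recovered read totals ranged from 12811413 to 15607343 per mouse. Group medians were 13591497 in controls, 14536037 with duloxetine, 13943370 with *R. flavefaciens* and 14621656 with both. Values below are normalized counts, the gene's reads divided by a size factor for the library. Markers of cortical excitatory neurons were all present, 5 of 5, and their summed normalized count varied by 1.20-fold over the mice, from 76306 to 91414. *Camk2a*, the kinase subunit abundant in forebrain excitatory neurons, made up 62.5% of it.

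One *R. flavefaciens* library, labelled 8_4, stood apart in markers of neighbouring tissue. Its summed normalized count of striatal projection neuron markers was 3620, against 2138 in the next highest mouse and a median of 1175. For choroid plexus markers it reached 791, where the next highest mouse had 151.8 and the median was 55.7; of that list *Folr1* and *Kcnj13* had no row. Differences described below that use the *R. flavefaciens* group are mostly given without this library as well. Library 12_2, of the mice given both treatments, had the highest summed astrocyte markers (18155, next to 16947) and endothelial markers (4257, next to 3591). It was also the highest for pericyte and smooth muscle markers (4020, next to 3914), microglial markers (3879, next to 3511), oligodendrocyte markers (44701, next to 39809) and, by a narrow margin, the excitatory neuron markers above. Oligodendrocyte markers varied the most between mice among the glial lists, by 4.33-fold, from 10325 to 44701, and their group means were 21977 ± 6788 (SD) in controls, 25015 ± 11917 with duloxetine, 26658 ± 12750 with *R. flavefaciens* and 25738 ± 13979 with both.

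Per kilobase of exon, the 2 oxidases were the most abundant of the 4 transcripts and *Slc22a3* the least. Mean levels over the 24 mice were 97.3 ± 11.6 (SD) normalized counts per kb of merged exons for *Maoa*, 100.7 ± 7.67 for *Maob*, 31.3 ± 5.00 for *Slc29a4* and 8.04 ± 2.23 for *Slc22a3*. Among 15438 genes with a known exon length, the median gene stood at 59.5, and the members reached the 62.1, 62.9, 36.0 and 14.2 percentile in that order. The oxidases were therefore above the middle of the genes in the table and both carriers below it. The merged length used for *Slc22a3*, 4513 bases, is that of the longer GENCODE vM21 model, beyond the position in the table.

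The order held in every mouse except between the oxidases. *Maoa* exceeded *Slc29a4* in 24 of 24 mice, with a median ratio of per-kb levels of 3.16 (range 2.06 to 4.16), and *Maob* did so in 24 of 24 with a median ratio of 3.22 (2.04 to 4.80). *Slc29a4* in turn exceeded *Slc22a3* in 24 of 24 mice, by a median ratio of 3.79 (2.49 to 7.53). Per kb of the principal transcript that ratio was 3.02 (1.985 to 5.996), again above 1 in 24 of 24 mice. Per kb of merged exons the oxidases did not separate, with *Maoa* above *Maob* in 10 of 24 mice and a median ratio of 0.994. Per kb of the principal transcript, which is shorter for *Maob* (2411 against 2789 bases), *Maoa* was above in 2 of 24, with a median ratio of 0.859. *Maob* was thus higher in most mice by both lengths, and the size of the gap depended on the length used.

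**Figure D1:**
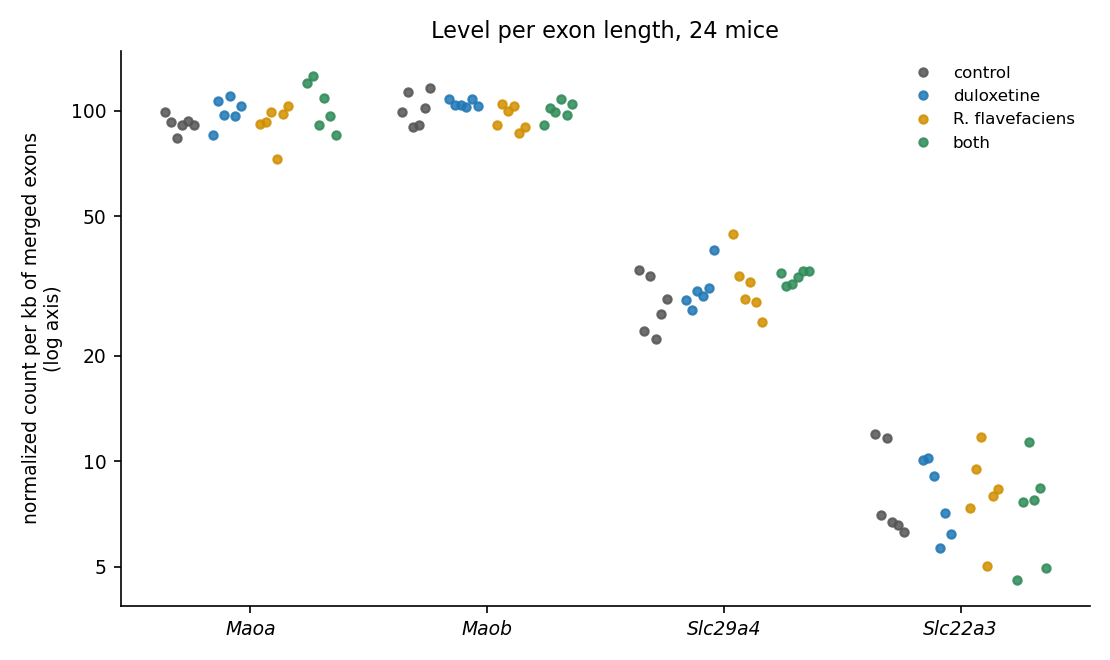
Normalized count per kb of merged exons (log axis) of the 4 genes, 1 point per mouse, coloured by group (6 mice each). *Maoa* and *Maob* overlap around a level of 100, *Slc29a4* lies below both in all 24 mice and *Slc22a3* lies lowest.

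*Maoa*, whose enzyme degrades serotonin and noradrenaline, had the highest mean in the mice given both treatments. In controls its lowest, median and highest normalized counts were 347.6, 383.6 and 412.4 (mean 383 ± 20.9 SD, n = 6). With duloxetine they were 355.8, 418 and 459.4 (416 ± 36.7), and with *R. flavefaciens* 302.7, 397 and 431.4 (388 ± 45.3). In the mice given both they were 355.3, 427.4 and 523.7 (435.5 ± 67.9). All groups overlapped: 3 of the 6 mice given both and 3 of the 6 duloxetine mice were above every control, and the others lay among the controls.

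The averaged effect of duloxetine, over mice with and without the bacterium, was a *Maoa* difference of 0.14 on the log2 scale (SE 0.06, 95% confidence interval 0.01 to 0.27), or 1.10-fold. Its unadjusted p was 0.0336 and its adjusted p 0.284, by limma with Benjamini-Hochberg adjustment over all genes tested, so it did not pass the threshold of 0.05. In that comparison 154 of the 14974 genes passed, 1.03%, and 14.9% had an unadjusted p below 0.05. Without library 8_4 the difference was 0.15 with an adjusted p of 0.228, and without library 12_2 it was 0.13 with an adjusted p of 0.363, within a range of 0.156 to 0.449 over leaving out each mouse.

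The single-group differences of *Maoa* were 0.12 for duloxetine against control (SE 0.09, adjusted p = 1.00 by limma), 0.01 for *R. flavefaciens* against control (SE 0.09, adjusted p = 0.964, and -0.01 without library 8_4) and 0.17 for both against control (SE 0.09, adjusted p = 0.317). The interval for both against control ran from 0.994- to 1.28-fold. Without library 12_2 the value was 0.16, in a range from 0.12 without library 11_3 to 0.23 without library 12_4. The interaction, which asks whether the drug effect differed with the bacterium, was 0.04 (SE 0.13, adjusted p = 0.946) and 0.065 without library 8_4. Neither direction of an interaction was resolved, as its interval ran from -0.21 to 0.30.

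*Maob*, the isoform that prefers phenylethylamine, had the lowest coefficient of variation over the 24 mice, though not within every group. Normalized counts in controls had a lowest, median and highest of 250.9, 280.6 and 322.9 (mean 284 ± 30.3 SD, n = 6). Duloxetine mice held the narrow range of 286.2, 290 and 301.9 (293 ± 6.86), while *R. flavefaciens* mice were at 241, 266.1 and 291.9 (267 ± 21.3). With both treatments the values were 253.8, 280.4 and 301.1 (279.8 ± 16.6). Every duloxetine mouse was above the control mean, but none was above the highest control.

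The coefficient of variation of *Maob* in the duloxetine mice was 2.34%, below the 5.78% that counting error alone would give at 299 reads. In controls it was 10.7% against 6.04% from counting. Whether the spread itself differed between groups was not tested.

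Differences of *Maob* between groups were small and their intervals narrow. Duloxetine against control was 0.05 on the log2 scale (SE 0.07, adjusted p = 1.00 by limma), with an interval from 0.942- to 1.14-fold, and it ran from 0.015 without control 2_2 to 0.09 without control 3_3. For *R. flavefaciens* against control the value was -0.09 (SE 0.07, adjusted p = 0.498), from 0.858- to 1.03-fold, and -0.10 without library 8_4, in a range from -0.12 without control 2_2 to -0.05 without control 3_3. The averaged effect of the bacterium was -0.08 with and without that library (SE 0.05, adjusted p = 0.402 with it), and the interaction 0.02 (SE 0.09, adjusted p = 0.971) and 0.03 without library 8_4.

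The raw ratio of *Maoa* to *Maob* in the same library, which does not depend on the size factor, averaged 1.36 ± 0.132 (SD) in controls, 1.42 ± 0.152 with duloxetine, 1.46 ± 0.248 with *R. flavefaciens* and 1.56 ± 0.288 with both, n = 6 each. The ratio reached 1.97 in one mouse given both treatments, and the lowest of that group, 1.22, lay below the control mean. No test was run on the ratio.

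**Figure D2:**
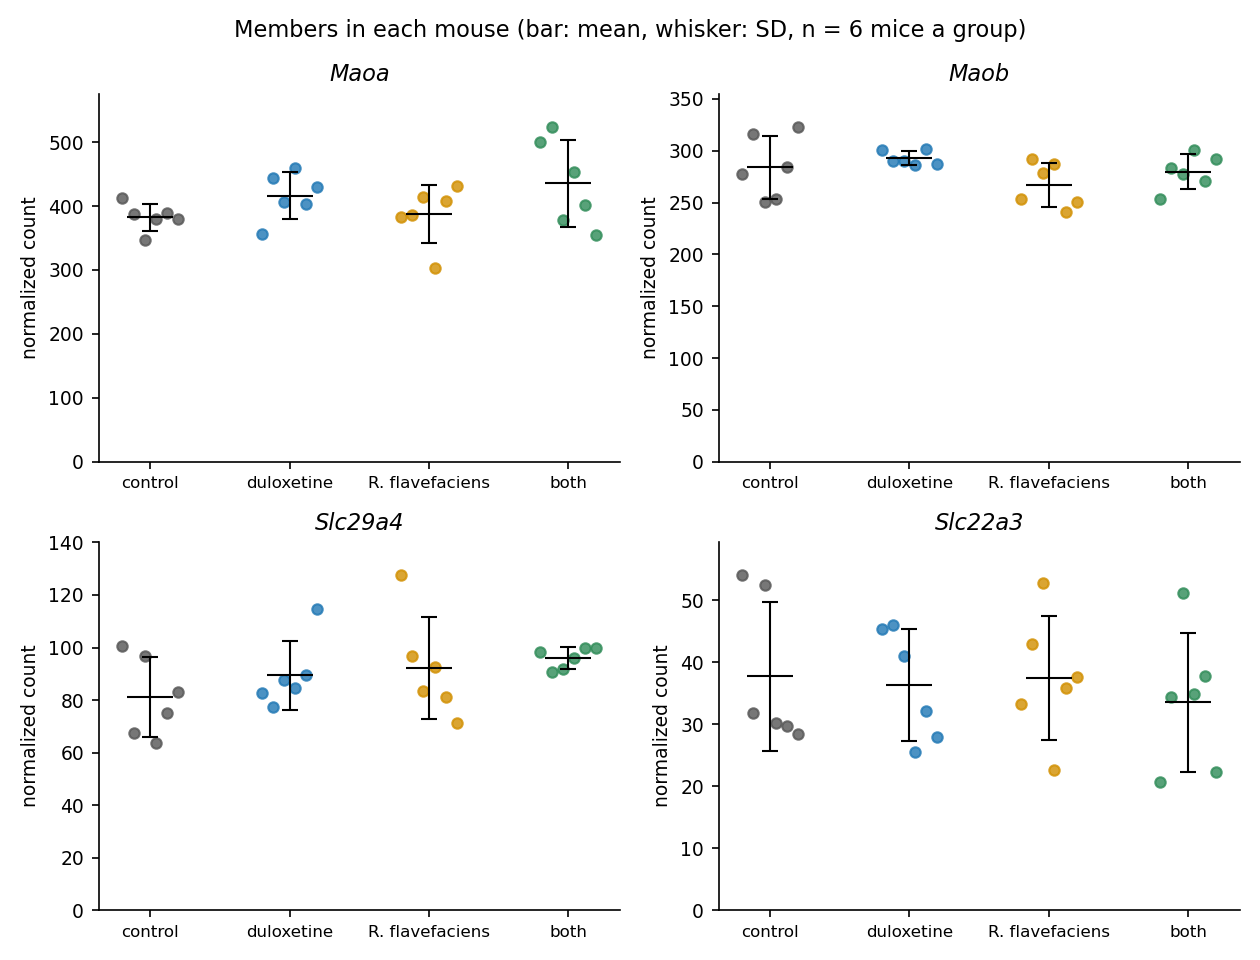
Normalized count of each of the 4 genes (y axes from 0) in each mouse by group, with 1 point per mouse; the bar is the group mean and the whiskers the SD (n = 6). The 4 groups overlap for every gene, and the widest *Maoa* range, 355.3 to 523.7, is in the mice given both treatments.

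*Slc29a4*, encoding the plasma membrane monoamine transporter PMAT, was lowest on average in controls. Control mice had a lowest, median and highest normalized count of 63.7, 79.2 and 100.8 (mean 81.2 ± 15.2 SD, n = 6). Duloxetine gave 77.4, 86.2 and 114.6 (89.5 ± 13.0), and *R. flavefaciens* gave 71.2, 88 and 127.4 (92.1 ± 19.5). The mice given both lay closest together, at 90.6, 97.1 and 100 (96.1 ± 4.05). All 6 of the latter were above the control mean and none was above the highest control.

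Both treatments against control was the largest difference of *Slc29a4*, 0.26 on the log2 scale (SE 0.13, 95% confidence interval 0.004 to 0.52) or 1.20-fold, with an unadjusted p of 0.0470 and an adjusted p of 0.292 by limma. It did not pass, and on the recovered reads the unadjusted p was 0.06505 with edgeR and 0.064 with DESeq2. Without library 12_2 the value stayed at 0.26. The share of all tested genes that passed was 0.1% here, while 16.8% reached an unadjusted p below 0.05. *R. flavefaciens* against control gave 0.18 (SE 0.13, adjusted p = 0.454), and 0.20 without library 8_4 but 0.08 without library 7_2, which held the highest value, and 0.25 without library 9_3, which held the lowest of its group. Duloxetine against control gave 0.15 (SE 0.13, adjusted p = 1.00), and the interaction was -0.07 (SE 0.18, adjusted p = 0.943) and -0.09 without library 8_4.

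*Slc22a3*, encoding the corticosterone-sensitive carrier OCT3, was scarce, with a mean of 36.5 reads per library. Its lowest, median and highest normalized counts were 28.4, 31.0 and 54.0 in controls (mean 37.8 ± 12.0 SD, n = 6) and 25.5, 36.6 and 46.0 with duloxetine (36.3 ± 8.98). *R. flavefaciens* mice had 22.7, 36.7 and 52.7 (37.5 ± 10.0), the highest being library 8_4. With both treatments the values were 20.6, 34.7 and 51.2 (33.5 ± 11.2). Of the controls, 4 sat near the low end of their group and 2 near the high end, and the 4 groups covered much the same range.

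The coefficient of variation of *Slc22a3* over all mice was 27.7%, against the 16.6% that counting error alone would give. For comparison it was 11.9% against 4.95% for *Maoa*, 7.61% against 5.95% for *Maob* and 15.9% against 10.5% for *Slc29a4*. These values pool the 4 groups and hold the differences between animals as well as counting error. Within the mice given both, *Slc29a4* had 4.22% against 9.95% from counting.

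The differences of *Slc22a3* had the widest intervals of the 4 genes. Duloxetine against control was -0.04 on the log2 scale (SE 0.23, adjusted p = 1.00 by limma), with an interval from 0.708- to 1.34-fold. *R. flavefaciens* against control was 0.00 (SE 0.23, adjusted p = 0.999), and -0.10 without library 8_4. For both treatments against control the value was -0.18 (SE 0.23, adjusted p = 0.716), from 0.642- to 1.22-fold, and it moved between -0.31 without library 11_4 and -0.06 without library 10_2 of the treated mice. A change within those bounds could not be resolved with this spread between mice.

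Across the 8 comparisons of the design, limma called 0 of the 4 genes in each. The share of all 14974 genes called was 0% for duloxetine against control, 0.0267% for *R. flavefaciens* against control, 0.1% for both treatments against control, 0% for both against duloxetine, 2.23% for both against *R. flavefaciens*, 1.03% for the averaged effect of duloxetine, 0.0267% for that of *R. flavefaciens* and 0% for the interaction. At these shares a count of 0 among 4 is close to what the background gives. On the recovered reads edgeR also called 0 of 4 in each comparison, beside shares of all genes, in the same order, of 0%, 0.0267%, 0.114%, 0%, 2.18%, 0.935%, 0.0267% and 0%. DESeq2 called 0 of the members that it gave an adjusted p, but except in the interaction it called more of all genes, 0.00668%, 5.6%, 1.68%, 0.00668%, 4.07%, 2.16%, 4.51% and 0% of those with an adjusted p. For *R. flavefaciens* against control and for the averaged effect of the bacterium DESeq2 gave none for *Slc29a4* and *Slc22a3*, which left 2 of the 4. At an unadjusted p below 0.05, limma found *Maoa* for the averaged effect of duloxetine and *Slc29a4* for both against control, whereas edgeR and DESeq2 each found *Maoa* in both of these comparisons and *Slc29a4* in neither.

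The comparisons against control share the same 6 control mice, so their values are not independent of each other. The median log2 difference of the 4 genes was 0.08 for duloxetine, 0.01 for *R. flavefaciens* and 0.08 for both against control, beside medians over all genes tested of 0.00 in each. Both treatments against *R. flavefaciens* had the largest share of called genes by limma over all 24 mice. By DESeq2 it had the most called genes, 610 of 14974, but not the largest share of genes with an adjusted p. That share was larger for *R. flavefaciens* against control (497 of 8877) and for the averaged effect of the bacterium (361 of 8006). For both against *R. flavefaciens* the 4 differences were 0.16 for *Maoa*, 0.07 for *Maob*, 0.08 for *Slc29a4* and -0.18 for *Slc22a3*, with adjusted p from 0.313 to 0.761 by limma. Without library 8_4 the number of all genes called in that comparison rose from 334 to 577, and without library 12_2 it fell to 158. The number of the 4 genes called stayed at 0 in both cases, and without library 8_4 the differences were 0.18 for *Maoa*, 0.08 for *Maob*, 0.06 for *Slc29a4* and -0.07 for *Slc22a3*. Leaving out other mice moved these values further, *Maoa* from 0.09 (without 9_1) to 0.22 (without 12_4), *Maob* from 0.04 (without 9_2) to 0.10 (without 10_2), *Slc29a4* from 0.015 (without 9_3) to 0.18 (without 7_2) and *Slc22a3* from -0.31 (without 11_4) to -0.06 (without 10_2). In bulk tissue fewer cells of a type and less RNA per cell cannot be told apart, which holds for every difference given here.

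**Figure D3:**
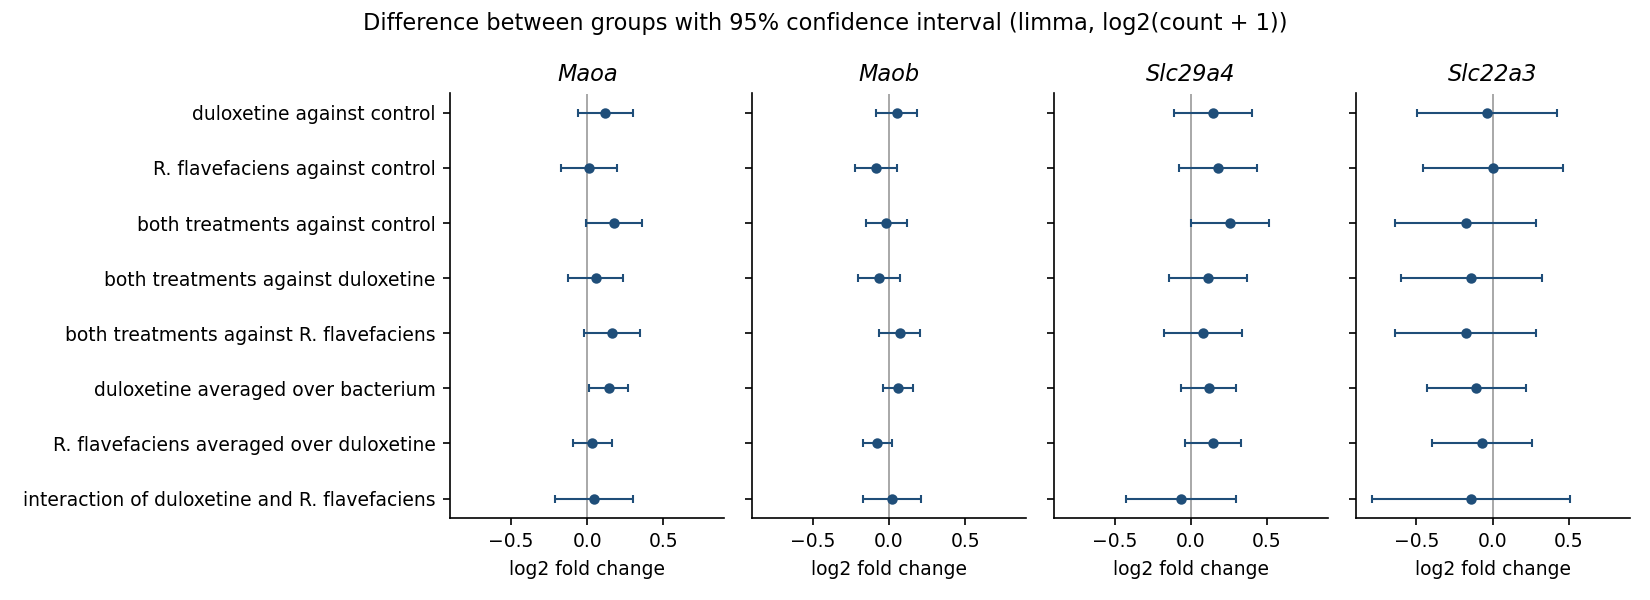
Difference between groups on the log2(normalized count + 1) scale (x axis) for the 4 genes in the 8 comparisons (rows); points are limma estimates and whiskers 95% confidence intervals. The intervals are narrowest for *Maob* and widest for *Slc22a3*, and only 2 of them exclude 0, *Maoa* for duloxetine averaged over the bacterium and *Slc29a4* for both treatments against control, neither of which passed after adjustment.

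Marker levels of other cells of the cortex are given beside these differences. The summed normalized count of 7 astrocyte markers, of which *Slc1a3*, the glutamate transporter GLAST, made up 51.2%, averaged 13387 ± 736 (SD) in controls, 13857 ± 1443 with duloxetine, 14506 ± 1176 with *R. flavefaciens* and 15031 ± 2379 with both. For the 5 endothelial markers the means were 3063 ± 163, 3260 ± 398, 3319 ± 114 and 3381 ± 498 in the same order. The 5 microglial markers, led by *Csf1r*, averaged 2836 ± 136, 3118 ± 263, 3086 ± 195 and 3221 ± 440, and the 5 blood markers, led by the globin *Hbb-bs*, 349 ± 65.7, 462 ± 265, 598 ± 204 and 633 ± 351. These 4 sums had their highest mean with both treatments, as *Maoa* and *Slc29a4* did. So did the excitatory neuron sum, at 84020 ± 2810, 84873 ± 3336, 82969 ± 5486 and 85936 ± 4123 in the same order. For each of these sums the ranking rested on library 12_2, without which the mean with both was not the highest. For blood the same held for library 11_3, its highest mouse (1090, next to 1062 in 12_2). *Maoa* and *Slc29a4* stayed highest with both when library 12_2 was left out. Without library 11_3, *Maoa* for both against duloxetine was -0.001 on the log2 scale. The sum for pericytes and smooth muscle was highest with duloxetine (2962 ± 491, 3250 ± 410, 3073 ± 425 and 3229 ± 529), and that for inhibitory neurons with *R. flavefaciens* (9616 ± 464, 9588 ± 326, 10458 ± 358 and 10047 ± 642). Without duloxetine mouse 6_3, the pericyte and smooth muscle mean with duloxetine was below that with both. The sum of 5 meningeal and fibroblast markers was lowest with both (666 ± 292, 677 ± 243, 748 ± 182 and 595 ± 94.9). Its highest mouse was control 2_2 at 1259, without which the control mean was below that with both. This mouse also had the second highest control values of *Slc29a4* (96.7) and *Slc22a3* (52.4). Means of the remaining lists were highest with *R. flavefaciens*, at 51.9 ± 10.1, 68.3 ± 42.1, 190.6 ± 295.7 and 77.9 ± 41.5 for choroid plexus and 1247 ± 183, 1170.5 ± 152.5, 1566 ± 1041 and 1338 ± 423 for striatal projection neurons. Both rankings rested on library 8_4. Without it the *R. flavefaciens* mean was below that with both for choroid plexus and was the lowest of the 4 groups for striatal projection neurons. The part of these cells in the differences was not tested. Of 8 markers of monoaminergic neurons only *Th*, *Ddc* and *Slc18a2* had a row, and *Tph2*, *Dbh*, *Slc6a2*, *Slc6a3* and *Slc6a4* had none; the sum of those present averaged 144 ± 40.2, 158 ± 23.0, 173 ± 28.7 and 156 ± 30.5.

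Around the 4 genes, 26 others of monoamine synthesis, vesicle loading, uptake and breakdown were listed, of which 18 had a row and were tested. Absent were *Tph1*, *Tph2*, *Dbh* and *Pnmt* of synthesis, *Slc18a1* of vesicle loading, and the 3 high-affinity transporters *Slc6a2*, *Slc6a3* and *Slc6a4*. Limma called 0 of the 18 in either direction in each of the 8 comparisons, as did edgeR. DESeq2 called 0 of those with an adjusted p, which were 9 of the 18 for *R. flavefaciens* against control, 14 for both against control, 7 for the averaged effect of the bacterium and all 18 elsewhere, beside the larger shares of all genes given above for that tool. At an unadjusted p below 0.05 there were 0 for duloxetine against control, 2 for *R. flavefaciens* against control and 1 for both against control, all higher in the treated mice. There was 1 for both against duloxetine, 2 for both against *R. flavefaciens*, 0 for the averaged effect of duloxetine, 3 for that of the bacterium and 2 in the interaction. The shares of all tested genes at that level were 3.83%, 19.6% and 16.8% against control, then 5.90%, 19.7%, 14.9%, 18.1% and 7.53%. The median log2 difference of the 18 was 0.01, 0.11 and 0.04 for duloxetine, *R. flavefaciens* and both against control.

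*Pts*, whose enzyme takes part in making the tetrahydrobiopterin cofactor of the amine hydroxylases, had the smallest unadjusted p of the synthesis genes against control. Its normalized count had a lowest, median and highest of 147.5, 180 and 209.8 in controls (179 ± 23.6 SD) and of 185.4, 224.3 and 253 with both treatments (222.5 ± 27.5), so the groups overlapped. The difference was 0.31 on the log2 scale (SE 0.11, unadjusted p = 0.00738, adjusted p = 0.165 by limma). *Th*, the rate-limiting hydroxylase of catecholamine synthesis, stood at 29.2 ± 8.26 in controls and 29.7 ± 8.12 with both.

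*Slc18a2*, the vesicular monoamine transporter, had the smallest unadjusted p of the list against control. Control mice ranged from 58.6 to 100.2 normalized counts with a median of 69.2 (72.6 ± 15.3 SD), and *R. flavefaciens* mice from 77.9 to 102.3 with a median of 93.2 (91.1 ± 8.71). The groups overlapped. Its difference was 0.34 (SE 0.11, unadjusted p = 0.00403, adjusted p = 0.102 by limma) and 0.31 without library 8_4. The interaction was -0.42 (SE 0.15, unadjusted p = 0.0111, adjusted p = 0.639), with both-treated mice at 79.1 ± 8.20.

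Further enzymes of breakdown were also tested. *Aldh2*, an aldehyde dehydrogenase that oxidizes the aldehydes the oxidases produce, averaged 1161 ± 40.7 (SD) in controls, 1160 ± 93.1 with duloxetine, 1242 ± 75.9 with *R. flavefaciens* and 1159 ± 86.6 with both. Its log2 difference was 0.10 for *R. flavefaciens* against control (SE 0.05, adjusted p = 0.334 by limma) and -0.10 for both against *R. flavefaciens* (SE 0.05, adjusted p = 0.307). *Akr1a1*, an aldehyde reductase, averaged 3274 ± 104 in controls and 3569 ± 268 with *R. flavefaciens*, a log2 difference of 0.12 (SE 0.04, unadjusted p = 0.00780, adjusted p = 0.124 by limma). For both against *R. flavefaciens* it was -0.11 (SE 0.04, adjusted p = 0.171), and *Aldh9a1*, another aldehyde dehydrogenase, was 0.21 (SE 0.08, adjusted p = 0.141). Without library 8_4 these values were 0.13, -0.11 and 0.24. Other libraries mattered more: without 9_3 the *Akr1a1* values were 0.09 and -0.07, and without 7_2 that of *Aldh9a1* was 0.16.

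The remaining pairs with the smallest unadjusted p in a comparison stayed above the threshold as well. *Akr1b3*, an aldose reductase, differed by 0.20 for both against duloxetine (adjusted p = 0.816 by limma), by 0.13 for both against control (adjusted p = 0.378) and by 0.13 for the averaged effect of the bacterium (adjusted p = 0.210), where *Pts* differed by 0.18 (adjusted p = 0.212). *Aldh9a1* differed by 0.15 for both against duloxetine (adjusted p = 0.818) and by 0.27 in the interaction (adjusted p = 0.639). Without library 8_4 the averaged effects of the bacterium were 0.11 for *Akr1b3* and 0.16 for *Pts*, and the interactions -0.385 for *Slc18a2* and 0.29 for *Aldh9a1*. For duloxetine against control the smallest were *Slc18a2*, at 0.22, and *Spr*, the last enzyme of tetrahydrobiopterin synthesis, at -0.08, both with an adjusted p of 1.00. The *Spr* value ran from -0.12 without library 6_3 to -0.05 without library 5_4, both of duloxetine mice. For the averaged effect of duloxetine they were *Akr1a1*, at -0.05 (adjusted p = 0.418), and *Spr*, at -0.08 (adjusted p = 0.426).

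**Figure D4:**
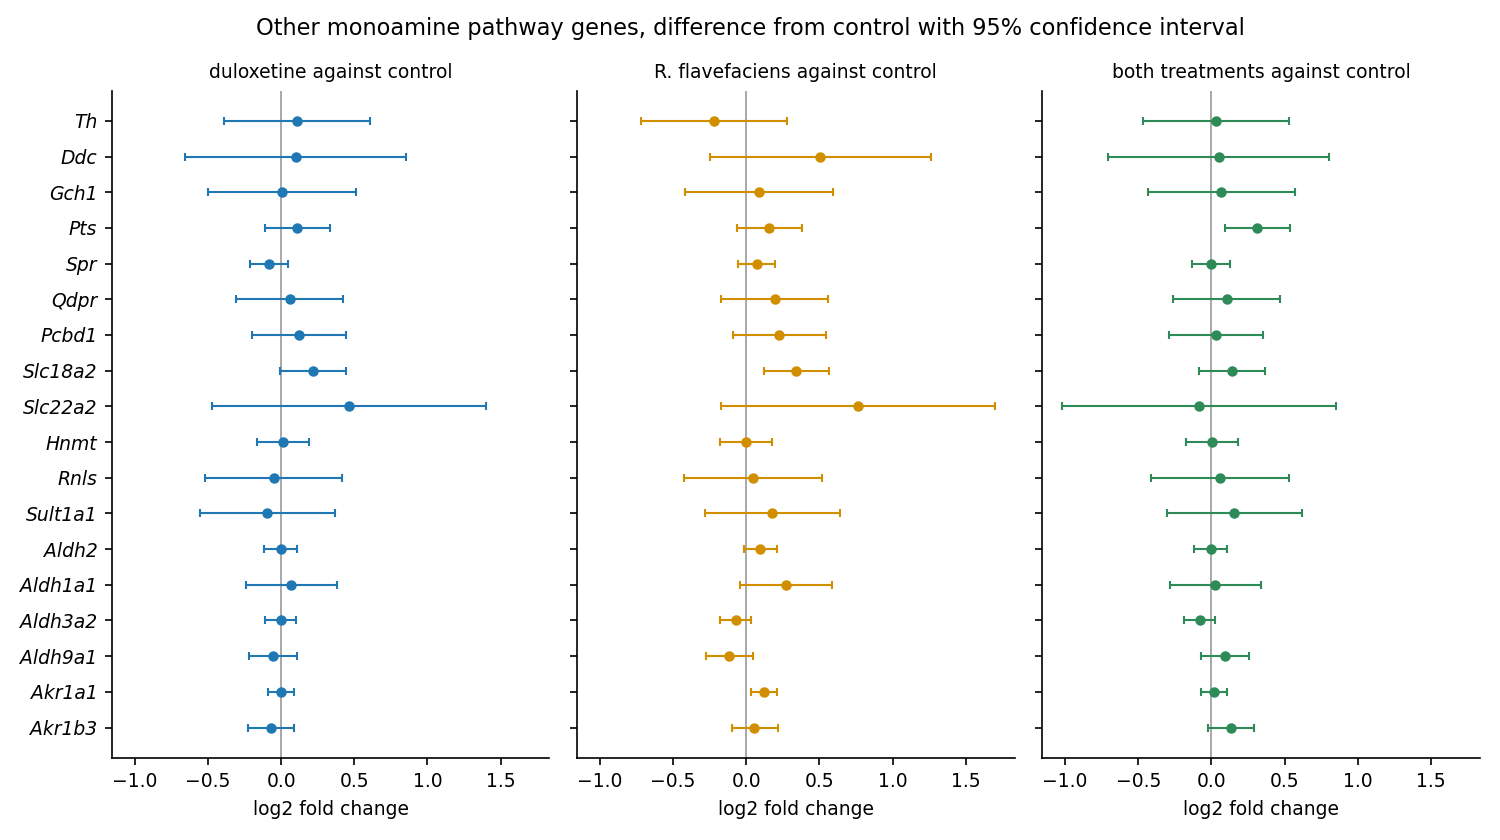
Difference from control on the log2(normalized count + 1) scale (x axes) of the 18 other monoamine pathway genes (rows), 1 panel each for duloxetine, *R. flavefaciens* and both treatments; points are limma estimates and whiskers 95% confidence intervals. Intervals that exclude 0 are those of *Slc18a2* and *Akr1a1* with *R. flavefaciens* and of *Pts* with both, and none passed after adjustment.

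How the 4 genes varied together from mouse to mouse was described by correlation. After group means were taken off, Pearson's r of log2(normalized count + 1) over the 24 mice was -0.22 between *Maoa* and *Maob* and between -0.16 and 0.04 for the other pairs. Spearman's rho was -0.23 for that pair, -0.30 for *Maoa* and *Slc29a4*, and between -0.09 and 0.02 for the rest. These are descriptions without a test, and the points share their libraries.

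The genes closest to each member by that measure, out of 14973 searched, were none of the pathway genes listed above. For *Maoa* they were *Eml2* (r = 0.889), *Cirbp* (0.860), a cold-inducible RNA-binding protein, and *Hirip3* (0.828). For *Maob* they were *Cbfa2t3* (0.799), *Casc3* (0.714) and *Zkscan5* (0.705). *Slc29a4* was nearest to *Ccdc160* (0.743), *4930412F12Rik* (0.703) and *Arfip2* (0.680), and *Slc22a3* to *Dlec1* (0.775), *Cpne7* (0.759) and *Wdr31* (0.737). The highest of so many correlations is expected to be large, and none is given as a finding.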

How the data were processed

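The authors sequenced poly(A) RNA and, per the methods, mapped it with Tophat2 to GRCm38.p5. The submitters' processing notes name mm9, TopHat2 2.1.0, Bowtie2 2.2.6 and DESeq2 1.18.1. Gene positions in the table match GRCm38 (14285 of 15456 identical in GENCODE vM21). The counter, its strand setting and the filter on genes are not given in the sources used here. The deposited signal values are gene counts that the authors normalized with DESeq2, 1 size factor per mouse. At least 99.97% of non-zero values per mouse were whole multiples of 1 step (tolerance 0.0051), which gave the recovered reads. The steps ran from 0.883 to 1.108. Within groups, all 60 pairs of mice differed beyond counting noise, with a chi-square of 2.11 to 26.8 per degree of freedom. The highest values were those of *R. flavefaciens* library 9_3, with 26.8 to 9_1, 25.9 to 9_2 and 21.4 to 8_3.

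Members were tested within a fit of all 14974 genes with a mean of at least 10, on log2(normalized count + 1), in limma 3.58.1 with a trended prior, R 4.3.3. All 24 mice entered 1 fit. Tests were two-sided, with Benjamini-Hochberg adjustment per comparison and a threshold of 0.05. Fold changes on this scale understate those of low genes. Alternatives were edgeR 4.0.16 (quasi-likelihood) and DESeq2 1.42.0 on recovered reads, quantile and upper-quartile scaling, a pseudocount of 0.1, a mean filter of 50 or none at all, a random block for the first label number, only the groups compared, a threshold of 0.1, and leaving out each mouse. The fits were tested on simulated data. Named genes were the members, the pathway genes with the 2 smallest unadjusted p in each comparison, and the 3 likest genes per member; *Th* and *Aldh2* were added for their role. Part of the pathway list is not reported here. The members and lists were chosen with earlier results of these data known.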

Additional observations from a re-analysis of the deposited data

Results flagged for a closer look

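Of 88 groups of 6 mice examined (the 4 members and 18 pathway genes in 4 groups), 3 held a mouse whose gap to its nearest neighbour exceeded Dixon's critical share of the group's range. Chance flags about 1 in 20 groups. *Slc29a4* in duloxetine mouse 6_3 stood at 114.6 normalized counts, the next mouse being at 89.6, and without it duloxetine against control moved from 0.15 to 0.08 on the log2 scale. *Ddc*, the decarboxylase of serotonin and dopamine synthesis, reached 74.0 in duloxetine mouse 6_2, the next being at 41.4. *Aldh9a1* was 375.8 in control mouse 2_3, next to 356.3.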

How the results depend on the processing

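Of the 4 genes, 0 passed in any comparison under any alternative that gave an adjusted p (DESeq2 gave none for 4 values of *Slc29a4* and *Slc22a3*), and 33 of 693 recomputed differences that moved at all (to 3 decimals) changed sign, 29 of them on leaving out 1 mouse. Of the 32 differences of these genes, 24 changed sign or moved by over 1.5 times on leaving out some mouse. *Slc22a3*, *R. flavefaciens* against control, was -0.019 with quantile normalization, -0.015 with edgeR and -0.011 with DESeq2, and ran from -0.104 to 0.132 over leaving out each mouse. *Maob*, both against control, was 0.015 with upper-quartile rescaling and ran from -0.051 to 0.021. Leaving out each mouse gave -0.111 to 0.074 for *Slc22a3*, duloxetine against control, -0.022 to 0.080 for *Maoa*, *R. flavefaciens* against control, and -0.001 to 0.111 for *Maoa*, both against duloxetine. For the interaction it gave -0.025 to 0.099 for *Maoa*, -0.018 to 0.054 for *Maob* and -0.133 to 0.033 for *Slc29a4*. *Slc22a3* gave no value at a minimum mean of 50, and the averaged effects and the interaction none from only the groups compared. Upper-quartile rescaling moved the median of all genes by at most 0.032.

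The number of all genes called depended on the processing, and the cause was not tested. For *R. flavefaciens* against control it was 4, and 0 with only the groups compared, 221 with the block, 497 with DESeq2, and 0 (without control 1_1) to 616 (without *R. flavefaciens* 9_2) over leaving out a mouse. For both against control it was 15, and 196, 59 and 217 under these alternatives, and 5 (without control 2_1) to 154 (without 12_4). For both against *R. flavefaciens* it was 334, and 0, 533 and 610, and 47 (without 11_3) to 577 (without 8_4). For the averaged effect of duloxetine it was 154, and 255 with the block, 317 with DESeq2, and 46 (without control 3_1) to 260 (without 12_4), and for that of the bacterium 4, 361 with DESeq2, and 1 to 135. At an adjusted p under 0.1 the first 4 of these counts were 579, 126, 842 and 374, and the last rose to 1.34% of the 14974 genes. Both against control also gave 30 at a minimum mean of 50 and 23 with upper-quartile rescaling, and the bacterium's average gave 2 with quantile normalization. The 3 comparisons at 0 stayed between 0 and 2 under all alternatives. Neither the titles nor the methods pair mice across groups. The block rests on the first number of each title, which never spans 2 groups and whose meaning is not given, and its estimated correlation was -0.045. According to the methods the mice were group housed, and the cage of each mouse is not given. An effect of cage therefore cannot be told apart from the differences between groups. No paired analysis was possible because the groups share no replicate numbers.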
